A study of Homo sapiens with 6 samples.

Results

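The TRAIL and FAS death receptor pathway was examined in DU145 cells that carried a lentivirus for the circular RNA circCSPP1. Its 9 genes were taken by symbol from the 19727 genes of the expression table: the ligand TNFSF10, the receptors TNFRSF10A, TNFRSF10B, TNFRSF10C, TNFRSF10D and FAS, the adaptor FADD, the caspase CASP8 and the inhibitor CFLAR. TNFRSF10B, which encodes death receptor 5 for TRAIL, was 1.5-fold higher in the lentivirus-circCSPP1 cells. TNFRSF10D, which encodes a decoy receptor for the same ligand, was at 0.446 of its control level. TNFSF10, the gene of TRAIL itself, was low in the controls and listed at 0 in every lentivirus-circCSPP1 library. No difference was called for FADD, CASP8 or CFLAR, the intracellular part of the complex.

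DU145 cells are an established line from human prostate cancer. The lentivirus-circCSPP1 group overexpressed the circular RNA and the control group, lentivirus-NC, received the control virus, and both were stable lines selected with puromycin, with 3 libraries per group. Both groups share the DU145 background and the lentiviral selection, and the number of integrations or clones behind each line is not given in the sources used here. The labels do not say that the 3 libraries of a group came from separate cultures, so the p-values below measure the spread between these libraries, which may be technical.

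TRAIL and FAS ligand are members of the tumour necrosis factor family. When TRAIL binds TNFRSF10A (DR4) or TNFRSF10B (DR5), or FAS ligand binds FAS, the death domain inside the cell recruits FADD, which in turn recruits procaspase-8, and the caspase is activated in this complex. TNFRSF10C (DcR1) has no intracellular death domain and TNFRSF10D (DcR2) has a truncated one, so that both bind TRAIL without starting this cascade, and CFLAR, the cellular FLIP protein, resembles caspase-8 without its protease activity and competes for FADD. Prostate cancer cell lines have been widely used to study how TRAIL kills tumour cells.

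The study examined miR-520h as a microRNA partner of circCSPP1, so the letters through which this microRNA could pair with the members are shown first. The mature sequence is from RefSeq (GRCh38.p14, chr19:53742566-53742587, plus strand), and its seed, bases 2 to 8, is in capitals.
hsa-miR-520h: aCAAAGUGcuucccuuuagagu
A 7-base match of either kind was searched on the transcribed strand of the longest 3′ UTR of each gene in GENCODE release 29, CACTTTG, which pairs with bases 2 to 8, and ACTTTGA, which pairs with bases 2 to 7 and is followed by an A. At least 1 such match was present in 6 of the 9 members (FAS, CASP8, CFLAR, TNFRSF10A, TNFRSF10B and TNFRSF10D), against 33.1% of the 12235 tested genes with a 3′ UTR. FADD held 1 match to bases 2 to 7 alone, and the 3′ UTRs of TNFSF10 (1222 nt) and TNFRSF10C (406 nt) held none of these letters. The 3′ UTR of CFLAR was 12714 nt, compared with a median of 1341 nt over the tested genes, so its 4 matches lie in a much longer sequence. Those of TNFRSF10B (2538 nt) and TNFRSF10D (2282 nt) were also longer than the median. Those of FAS (1335 nt), TNFRSF10A (1242 nt) and CASP8 (1117 nt) were shorter. The count of members with a match was not adjusted for length.

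The match in FAS and 3 of those in CFLAR are printed with their neighbours. The match in CASP8 and the remaining one in CFLAR, at base 45, are counted above but not printed. Both lie between CCAG and GGA, as do 29% of the 4609 CACTTTG matches in tested genes. Capitals mark the match, and coordinates are on GRCh38, plus strand. The FAS site starts at base 426 of a 3′ UTR of 1335 nt (chr10:89014866-89014893). The CFLAR sites start at bases 729 (chr2:201164692-201164719), 1068 (chr2:201165031-201165058) and 12500 (chr2:201176463-201176490).
FAS: acaggcaggcCACTTTGcctctaaatta
CFLAR, base 729: tacccgggaaCACTTTGcatccttctat
CFLAR, base 1068: ctgatactgtCACTTTGgggatactgtc
CFLAR, base 12500: ttctttgtatACTTTGAtatggtgacat
The presence of a match describes the sequence, and binding of the microRNA was not measured in these libraries.

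TNFSF10 is the member that was listed at 0 in the whole lentivirus-circCSPP1 group, and the sequence upstream of its start is printed for that reason. The 173 bases are from RefSeq (GRCh38.p14, chr3:172523508-172523680, minus strand), are given 5′ to 3′ on the strand of the gene and end 77 bases before the RefSeq start, where the annotated exons begin. Capitals mark, in order, the reverse complement of the interferon response type (GAAA, any 2 bases, GAAA) and the NF-kB type (GGG, any 5 bases, CC).
TNFSF10: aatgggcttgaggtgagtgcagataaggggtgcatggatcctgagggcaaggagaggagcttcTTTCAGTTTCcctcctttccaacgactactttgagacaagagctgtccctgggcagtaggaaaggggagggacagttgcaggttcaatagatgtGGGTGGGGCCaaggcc
The motifs were searched on both strands, from 250 bases before to 50 bases after the start. The interferon response type occurred in 3.57% and the NF-kB type in 58.7% of the 35116 RefSeq promoter windows, so that the second match is common. The window held TATAAA at -31 (11.5% of windows), inside the part not printed, and held neither GGGCGG (45% of windows) nor TGATGNAA (3.62% of windows), the type bound by C/EBP and ATF factors. Among the other members with a window in the table, FAS, FADD, CASP8 and CFLAR, 1 CASP8 window held the interferon response type and none held TGATGNAA.

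The libraries were made from poly(A) RNA and read from both ends, and for each gene the authors deposited an FPKM, the number of fragments scaled to the length of the transcript and to the total of the library. The depth read back from the low values was between 28800000 and 36400000 fragments per library, and the groups overlapped in it. FPKM was taken to log2(FPKM + 1) and the groups were compared with limma across the 12322 genes that averaged 1 FPKM or more, with Benjamini-Hochberg adjustment over all of them, and a gene was called when its adjusted p was under 0.05. Because of the added 1, log2 fold changes of low genes come out smaller than the change in FPKM. For a single gene, an exact permutation test of 3 against 3 libraries cannot give a two-sided p below 0.1. CSPP1, the host gene of circCSPP1, averaged 9.54 ± 0.493 FPKM in the controls and 19.5 ± 4.44 FPKM with lentivirus-circCSPP1 (SD, n = 3 each, log2 fold change 0.94, adjusted p = 0.016 in limma), a value in which linear RNA, circular RNA and vector cannot be told apart. On the log2 scale the correlation between libraries of the lentivirus-NC group was 0.991 to 0.992, and lentivirus-circCSPP1 replicate 1 stood apart from its group, with correlations of 0.97 and 0.979 where replicates 2 and 3 reached 0.99. The epithelial keratins KRT8, KRT18 and KRT19 were abundant in both groups. EPCAM averaged 20.4 FPKM in lentivirus-NC and 12.6 in lentivirus-circCSPP1, and CDH1 averaged 10.9 and 3.01. All 5 of these epithelial markers were called lower. Their summed FPKM, mostly from the keratins, was 2270 to 2360 in lentivirus-NC and 1050 to 1280 in lentivirus-circCSPP1. KLK3 and KLK2, the kallikreins of the luminal prostate epithelium, were listed at 0 in all libraries. Among immune cell markers CD3E was listed at 0 throughout and PTPRC reached at most 0.08 FPKM. The 5 immune cell markers summed to 4.2 to 5.13 FPKM in lentivirus-NC and 1.96 to 3.82 in lentivirus-circCSPP1, and the 5 fibroblast and endothelial markers to 2.83 to 4.38 and 1.14 to 1.56. Of the immune, fibroblast and endothelial markers only CD14, LST1 and COL1A1 reached the mean needed for the test. COL1A1 was called lower. CD14 (log2 fold change -0.51) and LST1 (-0.5) were lower without overlap of the groups but were not called. The part of these markers in the results on the death receptor genes was not tested.

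Of the 9 members, 8 passed the filter on low values and 2 were called, TNFRSF10B as higher and TNFRSF10D as lower. Over all tested genes 11.4% were called, 4.69% as higher and 6.66% as lower. The libraries of the groups did not overlap for 4 of the 8 tested members (TNFRSF10A, TNFRSF10B, TNFRSF10D and FAS), compared with 36.4% of all tested genes. The median log2 fold change of the tested members was 0.04, compared with -0.03 over all tested genes. The members had no common direction and are described by role. In these bulk libraries, fewer cells with a transcript and less of it per cell cannot be told apart.

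**Figure D1:**
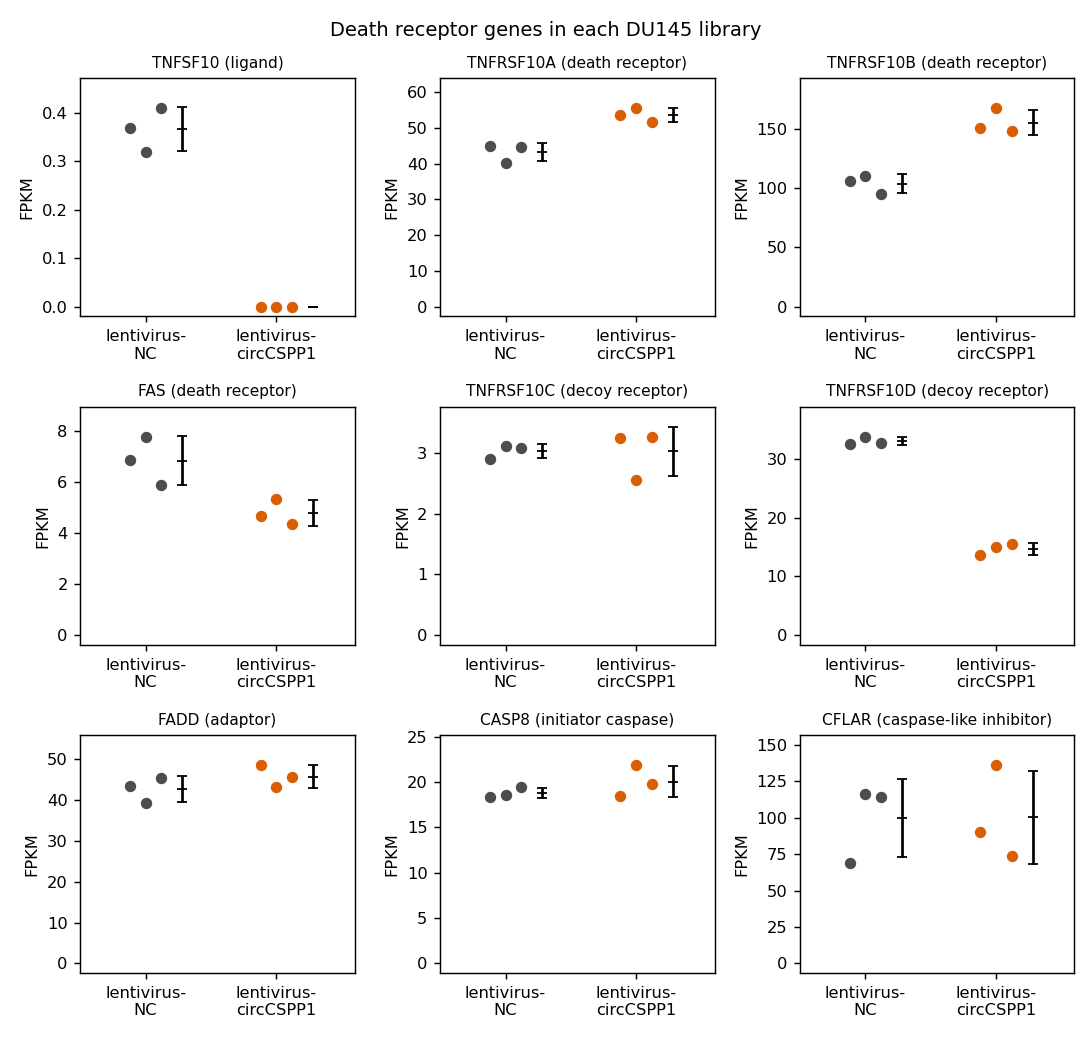
FPKM of the 9 death receptor genes (y axis, linear, from 0, its own range in each panel) in each library, with lentivirus-NC in grey and lentivirus-circCSPP1 in orange, replicates 1 to 3 from left to right, and a bar for the mean ± SD of 3 libraries. TNFRSF10A and TNFRSF10B lie higher and TNFRSF10D and FAS lower in lentivirus-circCSPP1 without overlap, TNFSF10 is at 0 there, and CFLAR spreads widely in both groups.

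The ligand was barely expressed. TNFSF10 (ENSG00000121858, chr3:172505508-172523507, minus strand, GRCh38) was at an FPKM of 0.37, 0.32 and 0.41 in the 3 lentivirus-NC libraries, and was listed at 0 in the 3 lentivirus-circCSPP1 libraries. On its longest transcript of 1953 nt and at the depths read back above, the control values correspond to about 21, 18 and 29 fragments, and 3 fragments would have given 0.044 to 0.053 FPKM in a lentivirus-circCSPP1 library. The groups thus did not overlap, but the gene was below the filter and had no test among the 12322 genes, and no fold is given against a group at 0. When the filter was dropped, the log2 fold change on the FPKM + 1 scale was -0.45 (adjusted p = 0.0076 in limma). Over all 19727 genes, 51 were above 0 in every lentivirus-NC library and at 0 in every lentivirus-circCSPP1 library, and TNFSF10 had the second highest control mean among them (0.367 FPKM, the highest being 0.473). The opposite pattern was seen in 17 genes.

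The receptors for TRAIL lie side by side on the short arm of chromosome 8, where the 4 genes span 205 kb (chr8:23020133-23225126). TNFRSF10B (ENSG00000120889, chr8:23020133-23069179, minus strand), the gene of death receptor 5, was the member with the highest mean level in both groups. Its values were 105.54, 110.37 and 95.13 FPKM in lentivirus-NC and 150.11, 167.14 and 147.93 FPKM in lentivirus-circCSPP1. Each lentivirus-circCSPP1 library was well above each control. The mean rose from 104 ± 7.79 to 155 ± 10.5 FPKM (SD, n = 3 each), a log2 fold change of 0.58 (SE 0.09, 95% interval 0.37 to 0.79, adjusted p = 0.01 in limma). The call was lost when lentivirus-NC replicate 1 (0.59, adjusted p = 0.056) or replicate 3 (0.52, adjusted p = 0.051) was left out, with little change in the size of the difference.

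TNFRSF10A (ENSG00000104689, chr8:23190452-23225126, minus strand), the gene of death receptor 4, was also higher in each lentivirus-circCSPP1 library, but was not called. It was at 44.83, 40.25 and 44.69 FPKM in lentivirus-NC and at 53.55, 55.53 and 51.53 FPKM in lentivirus-circCSPP1. The groups did not overlap, with means of 43.3 ± 2.6 and 53.5 ± 2.0 FPKM (SD, n = 3 each). The log2 fold change was 0.30 (SE 0.086, 95% interval 0.10 to 0.50) with an adjusted p of 0.064 in limma. It passed the threshold when lentivirus-circCSPP1 replicate 1, the library that stood apart, was left out (0.30, adjusted p = 0.029). The annotated genes AC100861.1 and TNFRSF10A-AS1 on the opposite strand share 266 and 224 of the 2951 exonic bases of TNFRSF10A. Reads over these bases cannot be told apart without strand.

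FAS (ENSG00000026103, chr10:88990582-89015785, plus strand), the receptor for FAS ligand, pointed in the other direction. Its FPKM was 6.85, 7.76 and 5.87 in lentivirus-NC and 4.65, 5.32 and 4.34 in lentivirus-circCSPP1. The lowest control was above the highest lentivirus-circCSPP1 library. The means were 6.83 ± 0.945 and 4.77 ± 0.501 FPKM (SD, n = 3 each), with a log2 fold change of -0.44 (SE 0.13, 95% interval -0.75 to -0.13, adjusted p = 0.076 in limma), and the gene was not called in any of the 16 alternatives run (other pseudocounts, filters, scalings and fits, a sequence correction and each library left out). ACTA2 on the opposite strand shares 380 of the 4253 exonic bases of FAS, and no source used here states that counting used the strand, so reads of the pair cannot be told apart over these bases.

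Of the decoy receptors, TNFRSF10D (ENSG00000173530, chr8:23135588-23164030, minus strand), the gene of DcR2, was called lower. Its values in lentivirus-NC were 32.70, 33.87 and 32.81 FPKM, and in lentivirus-circCSPP1 they were 13.60, 15.11 and 15.57 FPKM. The replicates lay close together in both groups and far from the other group. The mean fell from 33.1 ± 0.646 to 14.8 ± 1.03 FPKM (SD, n = 3 each), a log2 fold change of -1.12 (SE 0.094, 95% interval -1.34 to -0.90, adjusted p = 0.0015 in limma). It was called in all 16 alternatives, in which its log2 fold change was between -1.17 and -1.06. Of the stretches of 50 bases in its longest transcript 0.831% also occurred in another gene, and none of these was another TRAIL receptor.

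TNFRSF10C (ENSG00000173535, chr8:23102590-23117437, plus strand), the gene of DcR1, was low and showed no difference that these libraries could detect. It was at 2.90, 3.12 and 3.08 FPKM in lentivirus-NC and at 3.25, 2.56 and 3.27 FPKM in lentivirus-circCSPP1. The groups overlapped, and the mean was 3.03 FPKM in both (SD 0.117 and 0.404, n = 3 each). The log2 fold change was -0.01 with a 95% interval of -0.28 to 0.27 (adjusted p = 0.98 in limma). This level is uncertain, since 38.3% of its stretches of 50 bases are shared with the overlapping annotated genes AC107959.4 and AC107959.5.

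**Figure D2:**
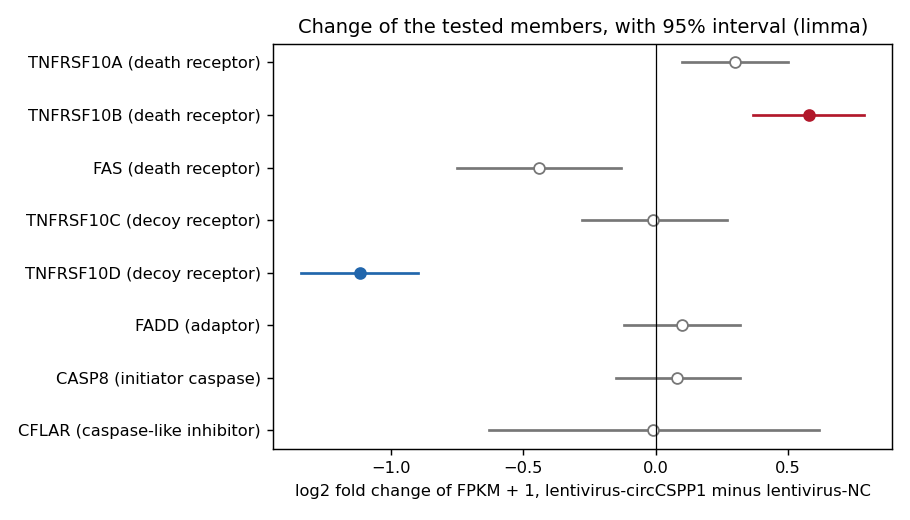
Log2 fold change of FPKM + 1, lentivirus-circCSPP1 minus lentivirus-NC (x axis), of the 8 tested members, with the 95% interval from limma, red where called higher, blue where called lower and open where not called. The change of TNFRSF10D is -1.12 and that of TNFRSF10B 0.58, the intervals of TNFRSF10A and FAS leave out 0 without a call, and the interval of CFLAR runs from -0.63 to 0.62.

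FPKM is divided by transcript length, so the receptors are set side by side within a library, but the length used for each gene is not given. Protein-coding transcripts in GENCODE run from 693 to 2714 nt for TNFRSF10A and from 1723 to 4146 nt for TNFRSF10B. Levels of different genes, and the shares and ratios built from them, are therefore approximate. In lentivirus-NC, TNFRSF10D made up 17.6%, 18.1% and 18.7% of the summed FPKM of the 4 TRAIL receptors, and in lentivirus-circCSPP1 6.17%, 6.29% and 7.13%. TNFRSF10B went from 56.8%, 58.8% and 54.1% to 68.1%, 69.5% and 67.8%. The shares of TNFRSF10A overlapped, at 21.5% to 25.4% in lentivirus-NC and 23.1% to 24.3% in lentivirus-circCSPP1, and those of TNFRSF10C were small, at 1.56% to 1.75% and 1.07% to 1.5%. The summed FPKM of the 4 receptors was 186, 188 and 176 in lentivirus-NC and 221, 240 and 218 in lentivirus-circCSPP1, so the sum was higher although TNFRSF10D was lower.

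The ratio of death receptors (TNFRSF10A plus TNFRSF10B) to decoy receptors (TNFRSF10C plus TNFRSF10D) was 4.22, 4.07 and 3.90 in lentivirus-NC and 12.1, 12.6 and 10.6 in lentivirus-circCSPP1, with means of 4.06 ± 0.164 and 11.8 ± 1.05 (SD, n = 3 each). The ratio of TNFRSF10B to TNFRSF10D was 3.23, 3.26 and 2.90 against 11.0, 11.1 and 9.5. The ratio of TNFRSF10B to TNFRSF10A was 2.35, 2.74 and 2.13 against 2.80, 3.01 and 2.87. These ratios are built from the values above and were given no test of their own. They concern RNA, and receptor protein on the cell surface was not measured.

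**Figure D3:**
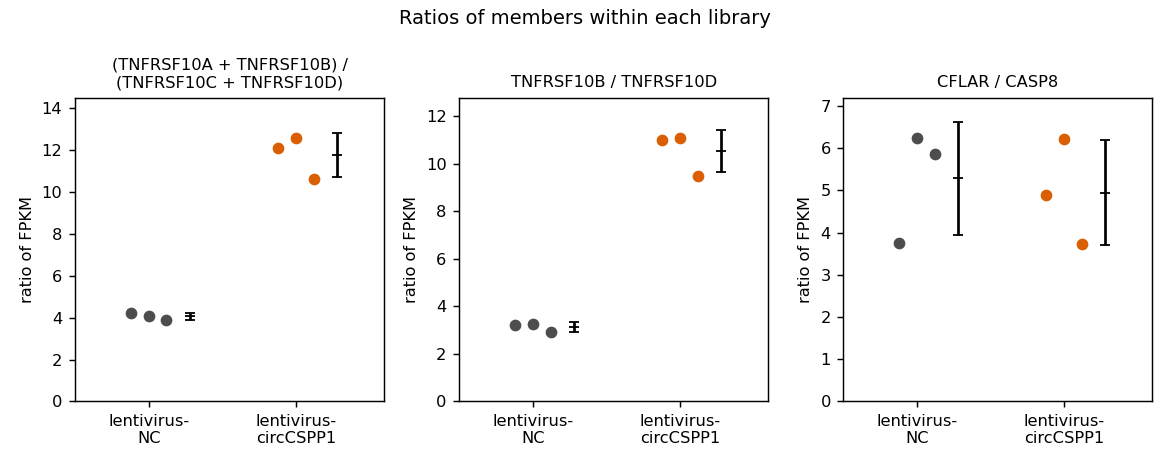
Ratio of FPKM (y axis, linear, from 0) between death and decoy receptors for TRAIL, between TNFRSF10B and TNFRSF10D, and between CFLAR and CASP8, in each library, with replicates 1 to 3 from left to right and a bar for the mean ± SD of 3 libraries. Both receptor ratios lie far higher in the lentivirus-circCSPP1 libraries, whereas the CFLAR to CASP8 ratio overlaps between the groups.

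Inside the cell, neither the adaptor nor the caspase was called. FADD (ENSG00000168040, chr11:70203163-70207390, plus strand) was at 43.37, 39.28 and 45.44 FPKM in lentivirus-NC and 48.60, 43.14 and 45.65 FPKM in lentivirus-circCSPP1. The groups overlapped, and the log2 fold change was 0.10 (95% interval -0.12 to 0.32, adjusted p = 0.54 in limma). The annotated antisense gene AP000879.1 covers 54.9% of the exonic bases of FADD, and reads of the pair cannot be told apart without strand.

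CASP8 (ENSG00000064012, chr2:201233443-201287711, plus strand), the initiator caspase of the complex, was at 18.33, 18.63 and 19.48 FPKM in lentivirus-NC and 18.44, 21.88 and 19.81 FPKM in lentivirus-circCSPP1. The groups overlapped here too. The log2 fold change was 0.08 (95% interval -0.15 to 0.32, adjusted p = 0.64 in limma), so a change of the size seen in TNFRSF10B is outside its interval. The ratio of FADD to CASP8 was between 1.97 and 2.64 over the 6 libraries.

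CFLAR (ENSG00000003402, chr2:201116104-201176687, plus strand) lies 57 kb before CASP8 on the same strand. It was at 68.94, 116.38 and 114.16 FPKM in lentivirus-NC and at 90.40, 135.90 and 73.77 FPKM in lentivirus-circCSPP1. In each group the highest library was far above the lowest, and the groups overlapped, with means of 99.8 ± 26.8 and 100 ± 32.2 FPKM (SD, n = 3 each). The log2 fold change was -0.01 (SE 0.27, adjusted p = 0.99 in limma), with a 95% interval of -0.63 to 0.62 that would hide a change of the size of TNFRSF10B in either direction. The SD of CFLAR within groups, 0.434 on the log2 scale, was larger than that of 96.4% of the tested genes, while in the other 7 tested members this share was 10.1% to 45.9%. CFLAR has 18 protein-coding transcripts of 435 to 14672 nt in GENCODE, and which of them the FPKM rests on is not given in the sources used here. The ratio of CFLAR to CASP8 was 3.76, 6.25 and 5.86 in lentivirus-NC and 4.90, 6.21 and 3.72 in lentivirus-circCSPP1.

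By mean FPKM in lentivirus-NC, under the same limit from transcript length, the order was TNFRSF10B, CFLAR, TNFRSF10A, FADD, TNFRSF10D, CASP8, FAS, TNFRSF10C and TNFSF10. TNFRSF10B and CFLAR differed by less than their spread there, as did TNFRSF10A and FADD. In lentivirus-circCSPP1 the order was the same, except that CASP8 stood above TNFRSF10D, each CASP8 value (18.44 to 21.88 FPKM) being higher than the highest of TNFRSF10D (15.57 FPKM).

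**Figure D4:**
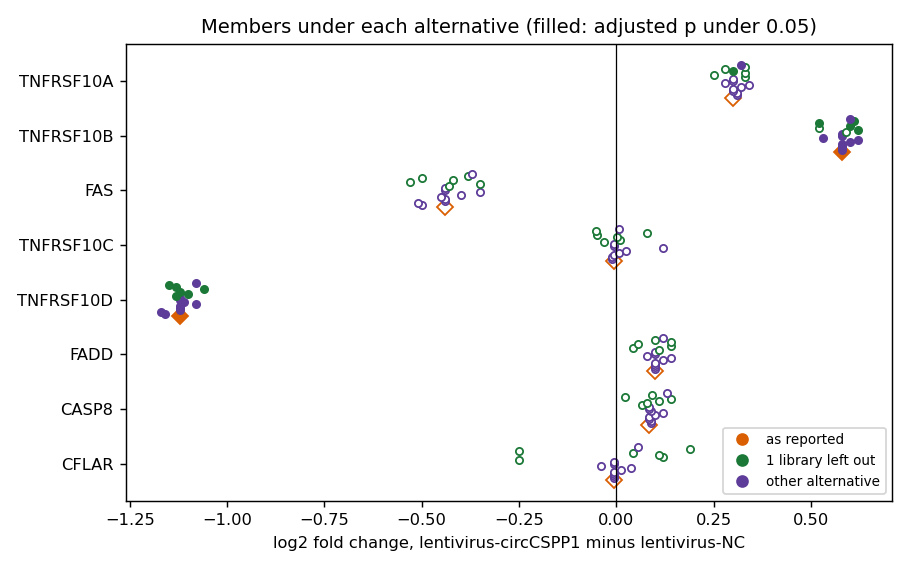
Log2 fold change, lentivirus-circCSPP1 minus lentivirus-NC (x axis), of each tested member as reported (orange diamond), with 1 library left out (green) and under the other alternatives (purple), filled where the adjusted p was under 0.05. TNFRSF10D is filled throughout, TNFRSF10B in 14 of 16 alternatives and TNFRSF10A in 2 of 16, FAS is open throughout, and TNFRSF10C and CFLAR lie on both sides of 0.

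Another 44 genes of death receptor signalling were listed beside the members, and 37 of them were tested. Of these, 5 were called, 3 higher and 2 lower, which is 13.5% against the 11.4% of all tested genes, and their median log2 fold change was -0.04. Among receptors, TNFRSF12A, which encodes the TWEAK receptor Fn14, was at 150.19, 131.85 and 154.95 FPKM in lentivirus-NC and 307.89, 270.69 and 262.97 FPKM in lentivirus-circCSPP1. It rose by a log2 fold change of 0.94 (SE 0.096, adjusted p = 0.0029 in limma), called in all 16 alternatives. TNFRSF21, the gene of death receptor 6, was at 20.09, 18.35 and 19.71 FPKM in lentivirus-NC and at 15.07, 11.69 and 12.43 FPKM in lentivirus-circCSPP1. It was called lower (-0.54, SE 0.12, adjusted p = 0.029 in limma), but in only 8 of the 16 alternatives. TNFRSF1A, TNFRSF1B and TNFRSF25, the other receptors listed, were not called.

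TNFRSF6B encodes DcR3, a soluble decoy that binds FAS ligand. It was at 33.00, 29.17 and 34.36 FPKM in lentivirus-NC and 22.94, 16.51 and 13.49 FPKM in lentivirus-circCSPP1. The groups did not overlap, and the log2 fold change was -0.86 (SE 0.18, adjusted p = 0.027 in limma), called in 9 of the 16 alternatives. FAS ligand itself, FASLG, was listed at 0 in all 6 libraries, and of the 5 ligands listed, FASLG included, 1 was tested and was not called.

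In the inhibitor group, 1 of 8 tested genes was called, beside 11.4% of all tested genes, so the count is no result about inhibitors. PEA15, whose protein binds FADD and caspase-8 through a death effector domain, was at 55.66, 54.59 and 57.46 FPKM in lentivirus-NC and at 107.76, 87.73 and 87.37 FPKM in lentivirus-circCSPP1. It rose by 0.74 on the log2 scale (SE 0.10, adjusted p = 0.007 in limma) and was called in all 16 alternatives. RBCK1, which encodes the HOIL-1 subunit of the linear ubiquitin ligase complex, was at 75.57, 76.70 and 74.52 FPKM in lentivirus-NC and 139.60, 103.10 and 108.60 FPKM in lentivirus-circCSPP1. It was called higher (0.61, SE 0.12, adjusted p = 0.02 in limma), in 10 of the 16 alternatives. The other 2 subunits, RNF31 and SHARPIN, were not called.

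None of the 11 listed caspases and genes that link the complex to mitochondria was called, nor were any of the 8 tested adaptors and kinases. With 11.4% of all tested genes called, few calls would fall in groups this small, so these counts only describe them. At an unadjusted p under 0.05 in limma there were 14 of the 37 tested pathway genes, beside 3477 of all 12322 tested genes. BID, whose protein is cut by caspase-8 to reach the mitochondria, came closest to a call, with 48.25, 51.58 and 47.44 FPKM in lentivirus-NC and 42.02, 32.25 and 34.24 FPKM in lentivirus-circCSPP1 (log2 fold change -0.44, adjusted p = 0.051 in limma). RIPK3, the kinase of necroptosis, was under the filter, at 0.08, 0.11 and 0.16 FPKM in lentivirus-NC and listed at 0 in the 3 lentivirus-circCSPP1 libraries. BID and RIPK3 were named after their values had been seen. The count of 5 called genes depended on the libraries used, and it was 11 without lentivirus-circCSPP1 replicate 1, 3 without its replicate 2, and 2 without its replicate 3 or without any 1 of the lentivirus-NC libraries.

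**Figure D5:**
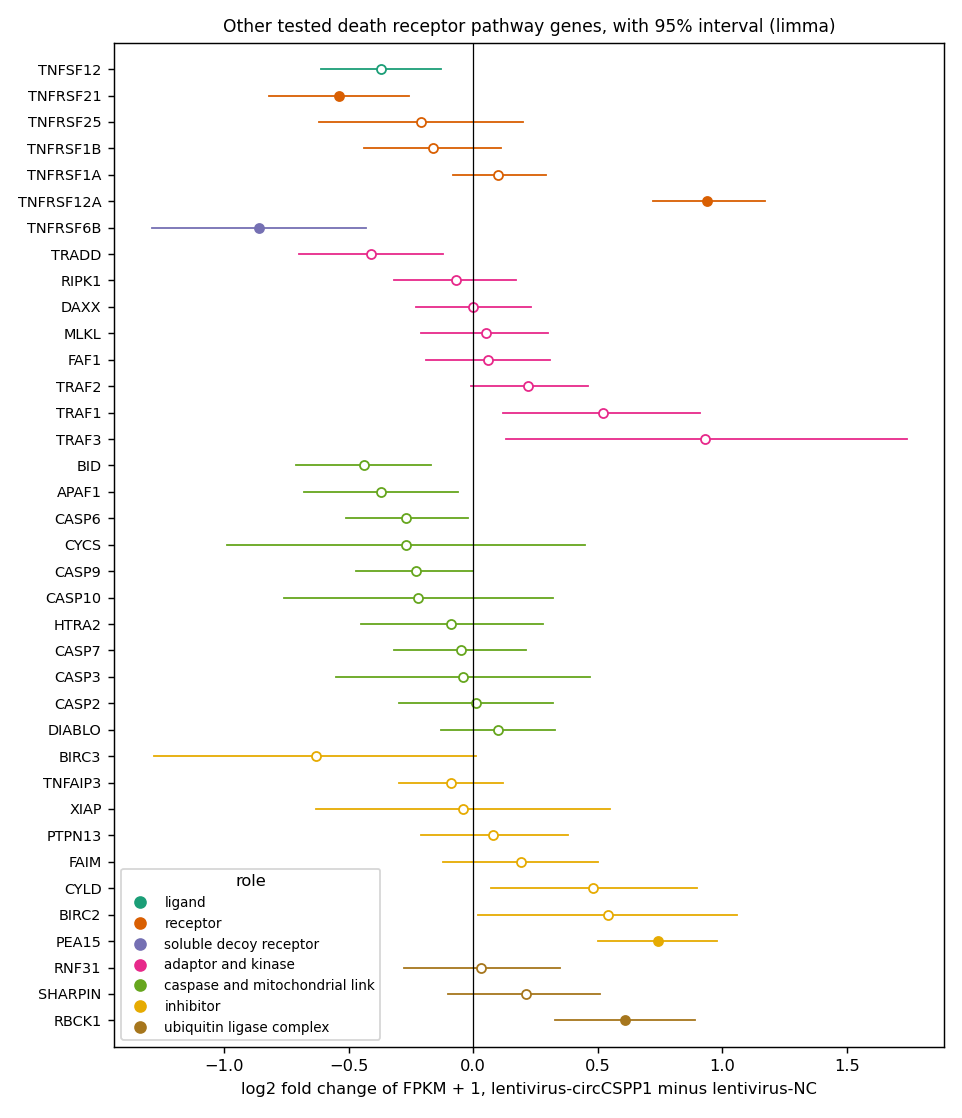
Log2 fold change of FPKM + 1, lentivirus-circCSPP1 minus lentivirus-NC (x axis), of the 37 tested pathway genes outside the 9 members, coloured by role, with the 95% interval from limma and filled where the adjusted p was under 0.05. TNFRSF12A, PEA15 and RBCK1 are filled on the right, TNFRSF6B and TNFRSF21 on the left, and all 11 caspases and mitochondrial link genes are open.

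Of 7 transcription factors known to act on genes of this pathway, 4 were called, all as higher. The list was drawn up with earlier results of these libraries known, so its count is no independent evidence of a direction. DDIT3, the gene of CHOP, which is known to activate TNFRSF10B under stress of the endoplasmic reticulum, was at 24.40, 28.18 and 20.91 FPKM in lentivirus-NC and 69.00, 84.85 and 75.27 FPKM in lentivirus-circCSPP1. It rose by 1.61 on the log2 scale (SE 0.13, adjusted p = 0.0015 in limma), called in all 16 alternatives. ATF4, which lies upstream of DDIT3, was at 300.50, 301.53 and 285.74 FPKM in lentivirus-NC and 391.72, 380.39 and 396.20 FPKM in lentivirus-circCSPP1 (0.40, adjusted p = 0.011). RELA, an NF-kB subunit (0.56, adjusted p = 0.01), and IRF1, an interferon regulatory factor (0.51, adjusted p = 0.039), were also called. Of the 16 alternatives, RELA was called in 14, ATF4 in 12 and IRF1 in 8. FOXO3 was not called (adjusted p = 0.90). Whether any of these factors bears on the receptor values was not tested.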

How the data were processed

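Libraries of DU145 cells, 3 lentivirus-NC and 3 lentivirus-circCSPP1, were grouped by their labels. The authors deposited 1 table of FPKM values, rounded to 2 decimals, for 19727 genes. The submitters' processing notes name hg 38, and the aligner, counter and annotation are not given in the sources used here. FPKM depends on transcript length and on the library total, so a gene also moves when others take more of the library. Depth was read from FPKM steps of genes with 1 transcript shorter than 800 nt (93% to 97.5% of 67 to 83 values whole within 0.15 of a step, 30% by chance).

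The test was limma 3.58.1 (R 4.3.3) on log2(FPKM + 1) without covariates, two-sided, with the eBayes trend and Benjamini-Hochberg adjustment. It took the 12322 genes averaging 1 FPKM or more and left out 7405. The fit was tested on simulated data. The members and all lists were chosen with earlier results of these data known. Genes named were the members, called genes of the pathway list (up to 12), the 7 transcription factors, CSPP1 and the 3 genes nearest TNFRSF10B, and other names were added with their values in view. Some members of the lists and some sequences are not reported here. Coordinates, overlaps and 3′ UTRs came from GENCODE release 29 on GRCh38, which may not be the authors' annotation. Python 3.11.15, pandas 2.3.3 and matplotlib 3.10.9 were used. Alternatives were pseudocounts of 0.1 and 0.01, no filter or one at 5 FPKM, TPM, median-ratio and quantile scaling, no moderation, a replicate block, each library left out and, chosen after seeing the data, a loess correction for GC content and length.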

Additional observations from a re-analysis of the deposited data

How the results depend on the processing

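The count of 2 called members was 1 to 3 when each library was left out in turn, the highest without lentivirus-circCSPP1 replicate 1, and the other alternatives kept it within 1.5 times. TNFRSF10D was called in all 16 alternatives, and TNFRSF10B was lost without lentivirus-NC replicate 1 (adjusted p = 0.056) and replicate 3 (adjusted p = 0.051). TNFRSF10A passed the threshold without lentivirus-circCSPP1 replicate 1 and under the loess correction for GC content and length (0.32, adjusted p = 0.014), and its adjusted p ranged from 0.014 to 0.24. The 5 other pathway genes called became 3 with no filter, 2 without moderation and 13 under the loess correction, and 2 to 11 with each library left out. The 1399 calls over all tested genes became 834 without moderation, 923 with the replicate block and 3523 under the loess correction, and 300 to 3512 with each library left out, the lowest without lentivirus-NC replicate 1 and the highest without lentivirus-circCSPP1 replicate 1. The cause was not tested.

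Neither TNFRSF10C nor CFLAR was called anywhere, and the sign of their log2 fold change turned. For TNFRSF10C it was 0.0066 on TPM, 0.026 with median-ratio scaling, 0.12 with quantile normalization, 0.0066 under the loess correction and -0.052 to 0.079 with each library left out. For CFLAR it was 0.013 on TPM, 0.037 with median-ratio scaling, 0.055 under the loess correction and -0.25 to 0.19 with each library left out. No scaling moved the median of all genes by more than 0.039.

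Samples with the same replicate number correlated at 0.0734, 0.00653 and 0.0572 in their deviations from the group means. Samples with different numbers correlated at -0.067 to 0.0358. The labels do not say whether the numbers pair the libraries, and correlations this small among 3 libraries per group cannot decide it. Under the replicate block TNFRSF10B (adjusted p = 0.02) and TNFRSF10D (adjusted p = 0.0068) were still called. In the lentivirus-circCSPP1 libraries, depth sets the limit for TNFSF10 at 0.044 to 0.053 FPKM (3 fragments).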

Other observations

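The 3 tested genes whose values lay nearest to those of TNFRSF10B over the 6 libraries, by the root mean square difference of log2(FPKM + 1) centred on the lentivirus-NC mean, were CARS (0.055), GDPD1 (0.057) and WAC (0.057). CARS encodes cysteinyl-tRNA synthetase and was at 61.27, 60.36 and 53.19 FPKM in lentivirus-NC and at 83.31, 89.04 and 88.53 FPKM in lentivirus-circCSPP1. GDPD1 was far less abundant, with means of 5.0 ± 0.593 and 7.72 ± 0.568 FPKM (SD, n = 3 each). WAC had means of 56.8 ± 2.64 and 85.4 ± 5.64 FPKM (SD, n = 3 each). These genes were picked for this likeness, so their differences are a description.

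CYCS and XIAP, which act after the receptor complex, were low in 1 library. CYCS, the gene of cytochrome c, was at 81.59, 84.92 and 84.62 FPKM in lentivirus-NC and at 38.74, 95.73 and 88.46 FPKM in lentivirus-circCSPP1. XIAP, which encodes an inhibitor of caspases, was at 5.52, 5.10 and 5.30 FPKM and at 3.05, 7.56 and 5.61 FPKM. The low value was in lentivirus-circCSPP1 replicate 1 in both, the library that stood apart in its correlations. TRAF3, an adaptor of this receptor family, was at 12.48, 11.31 and 19.80 FPKM in lentivirus-NC and at 15.90, 33.65 and 39.93 FPKM in lentivirus-circCSPP1 (log2 fold change 0.93, 95% interval 0.13 to 1.74, adjusted p = 0.13 in limma), with groups that overlapped. CYCS, XIAP and TRAF3 were named after their values had been seen.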
